A study of Homo sapiens with 10 samples.

Results

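Actin filaments and the motor protein myosin 2 form the contractile machinery of the cell, of which 10 genes were examined in ARPE-19 cells, an established human retinal pigment epithelium (RPE) line. They were taken as the rows of the deposited count table whose gene symbol is ACTB, ACTG1, ACTA2, TAGLN, CNN1, MYL9, TPM1, TPM2, CALD1 or MYH9. All 10 have 1 row each among the 22626 rows of the table. The cells were grown for 48 h in control medium (5.5 mM glucose with 32 mM mannitol, n = 5 libraries) or in high glucose medium (HG, 37.5 mM glucose, n = 5 libraries). Mannitol is a sugar alcohol that balances the osmotic load of the control medium, and the labels name none for the HG medium, so that an effect of glucose and one of the missing mannitol cannot be told apart. Apart from these media the groups share the cell line and the culture in DMEM with fetal bovine serum. The labels do not say whether the libraries of a group came from separate cultures, and p-values then measure only the spread between these libraries.

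In a non-muscle cell, beta-actin and gamma-actin polymerise into filaments, tropomyosin lies along the filament, and myosin 2 pulls filaments past one another. The pull is switched on when the regulatory light chain of myosin is phosphorylated. Smooth muscle alpha-actin, transgelin and calponin are typical of smooth muscle, and they also appear in epithelial cells that take on mesenchymal features. In RPE cells, actin filaments run as a belt at the cell junctions and as stress fibres at the base of the cell. Many of these genes carry CArG boxes, the DNA element bound by serum response factor (SRF), whose cofactors of the MRTF family are released when free actin monomers become few.

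The 3 actins encode very similar proteins, so reads can be assigned to one or the other only where their messages differ. In the last 90 coding bases ACTG1 differs from ACTB at 4 bases and ACTA2 at 10. For the length this is fewer than over the coding sequence, so the stretch shows a part that is more alike. The last 90 coding bases before the stop codon are given here from GENCODE release 29 (GRCh38, minus strand for all 3 genes), with bases that differ from ACTB in capitals.
ACTB: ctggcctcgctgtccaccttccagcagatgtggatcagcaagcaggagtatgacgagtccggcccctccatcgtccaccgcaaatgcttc
ACTG1: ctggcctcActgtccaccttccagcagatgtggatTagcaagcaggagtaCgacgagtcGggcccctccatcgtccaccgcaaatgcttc
ACTA2: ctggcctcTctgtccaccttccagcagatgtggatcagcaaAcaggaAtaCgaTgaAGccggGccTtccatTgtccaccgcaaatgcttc
These stretches lie at chr7:5527751-5527840, chr17:81510693-81510782 and chr10:88935226-88935315. Over nearly the whole coding sequence, ACTB and ACTG1 were 91.6% identical, with 59 bases as the longest identical run. ACTB and ACTA2 were 83.0% identical with a longest run of 32 bases. Of the 100-base windows of the longest coding transcript of each member, 0.2% were found in transcripts of another gene for ACTB (the pseudogene ACTBP2) and 0.0% for the other 9 members, so that reads of about that length can separate the genes. The read length and the counting program are not given in the sources used here.

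SRF binds CArG boxes, and the windows upstream of the members' starts were therefore searched for them. Windows from RefSeq (GRCh38.p14) were at hand for 7 of the 10 members: ACTG1, ACTA2, CNN1, TPM1, TPM2, CALD1 and MYH9. A CArG box without a mismatch stood in the 250 bases upstream of ACTG1, from 94 to 85 bases before the start, while 1.16% of 35116 promoter windows of this length hold one. With 1 mismatch allowed anywhere in the 10 bases, the share over all windows was 16.8%, windows without a mismatch included. Among the 12 windows of the 7 members 4 had such a match, namely that of ACTG1, 1 of the 2 of ACTA2 and 2 of the 4 of CALD1. The 30 bases around the element of ACTG1 and 120 bases before the downstream start of ACTA2, from 130 to 11 bases upstream of it, are shown with the CArG matches in capitals.
ACTG1: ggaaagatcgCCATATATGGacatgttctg
ACTA2: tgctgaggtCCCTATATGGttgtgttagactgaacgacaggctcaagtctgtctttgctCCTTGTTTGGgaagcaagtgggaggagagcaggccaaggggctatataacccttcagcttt
The first lies at chr17:81512874-81512903 and the second at chr10:88952784-88952903, both on the minus strand. In ACTA2 the matches are 121 to 112 and 71 to 62 bases upstream of the start. No binding was measured in these cells, and a match describes only the letters of the window. The motif CATTCC, read on both strands and bound by TEAD factors, was found in 4 of these 12 windows (1 of ACTA2, 2 of CALD1 and 1 of MYH9) and in 11.9% of all windows.

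Of the 10 genes, 9 had enough reads to be tested, and all 9 were lower in the HG group (adjusted p between 0.000145 and 0.0443 from edgeR's quasi-likelihood test). Transgelin and the myosin light chain MYL9 fell most, to 40.6% and 40.7% of their control level, and the actins fell least in this fit. After a correction for GC content and length, MYH9 (log2 fold change -0.26) fell less than ACTB (-0.33) and ACTA2 (-0.31). Over all 14936 genes tested, 7.80% were called lower and 15.4% in either direction at an adjusted p under 0.05, and 49.8% had a log2 fold change below 0. The 5 HG libraries lay below the 5 control libraries without overlap in 8 of the 10 members, against 6.91% of all genes tested in this direction and 13.6% in either. The median log2 fold change was -0.386 over the 9 members and 0.00132 over all genes tested. With a fold change above 1.5 as a second limit, 2 of the 10 members passed, and 2.02% of all genes tested did so in this direction and 3.69% in either. Together the 10 genes held 1.90% ± 0.066 of the counts of a control library (SD, n = 5) and 1.51% ± 0.048 of an HG library, with ranges of 1.83 to 1.98% and 1.47 to 1.58%. RNA was read from whole cultures, so that fewer cells of a kind and less RNA per cell cannot be told apart.

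**Figure D1:**
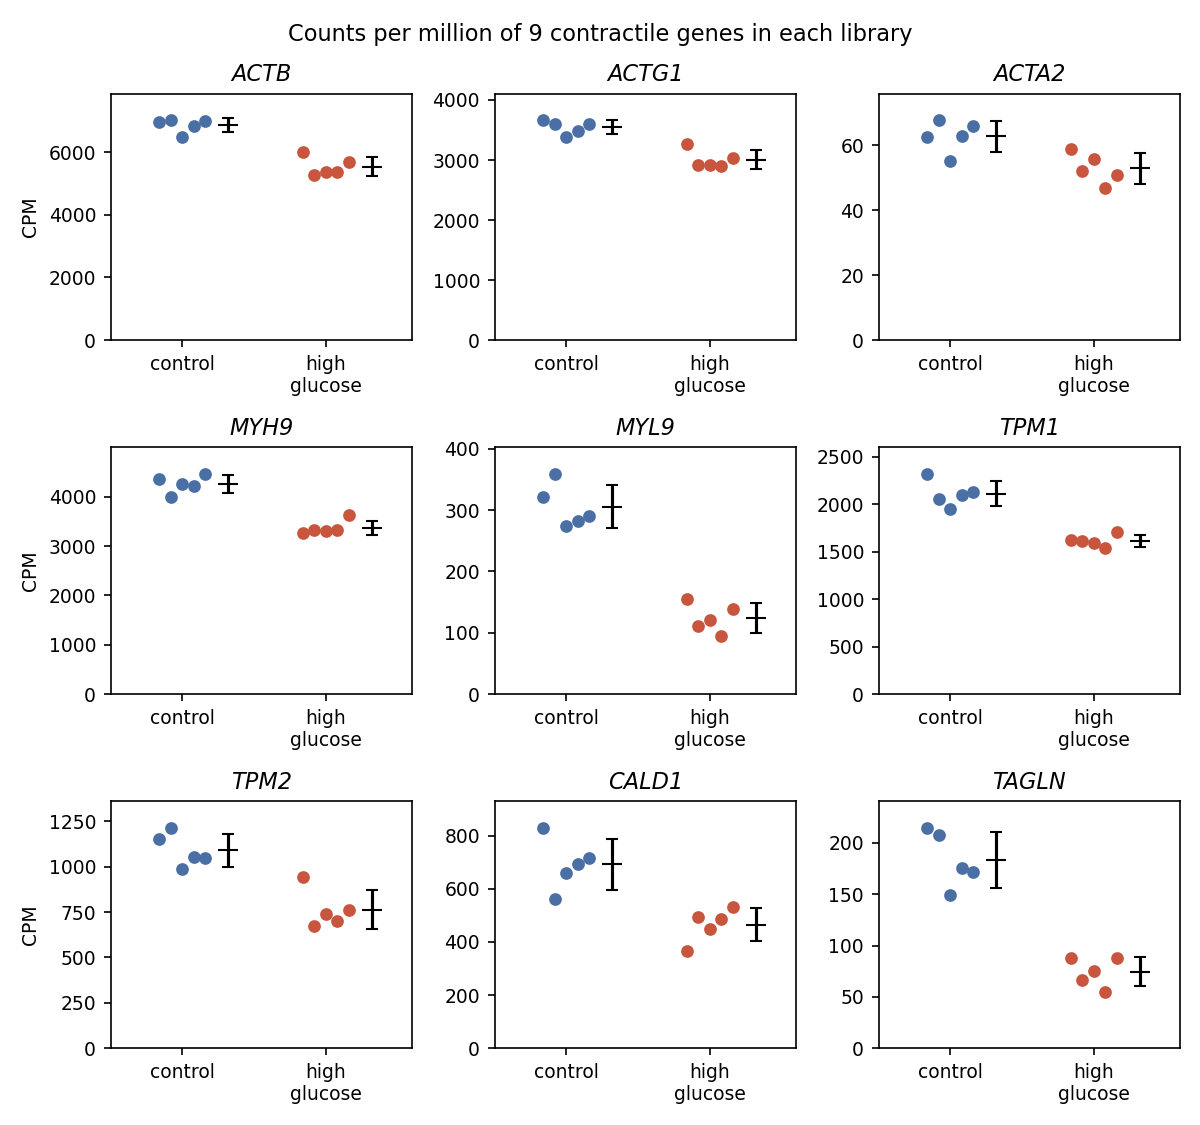
Normalised read counts (CPM, counts per 1000000 reads of the TMM-normalized library size, linear axis from 0) of the 9 members that were tested, with 1 point a library and the mean ± SD of each group beside the points. ACTA2 is the gene whose groups overlap, and MYL9 and TAGLN show the widest gap relative to their level.

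Total counts were between 32448991 and 45864176 per library. HG_1 and control replicate 2 stood apart from the other 8 libraries on the second principal component (14.9% of the variance), and their counts rose with GC content, with slopes of 0.184 and 0.167 on the log2 scale per 10 points of GC, against slopes between -0.0911 and -0.00415 in the others. The HG libraries are named by their column (HG_1 to HG_5), since only their group could be matched to the labels. No library was a repeat of another of its group, since chi-square per gene in the 20 within-group pairs was between 13.8 and 78.5. Of 12 RPE markers 9 had enough reads to be tested, OTX2, MITF, KRT8 and KRT18 among them, while RPE65 had at most 6 counts in a library and TTR had 0 in all.

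ACTB encodes beta-actin, the main actin of non-muscle cells and a common loading control. It lies on chromosome 7 from 5527147 to 5563784 (GRCh38, GENCODE release 29, minus strand). The control libraries held 6961, 7024, 6476, 6844 and 6986 CPM in the order of their replicate numbers, and the HG libraries held 6011, 5267, 5364, 5349.5 and 5679 in the order of their columns. The lowest control library was 465.7 CPM above the highest HG library. The mean fell from 6858 ± 223.7 to 5534 ± 309.1 CPM (SD, n = 5 each), a log2 fold change of -0.31 (adjusted p = 0.00147 by edgeR, standard error 0.0467), which leaves 80.7% of the control level. ACTB made up between 0.650 and 0.701% of all counts in the control libraries and between 0.536 and 0.580% in the HG libraries.

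ACTG1 encodes gamma-actin, the other cytoplasmic actin, on chromosome 17 from 81509971 to 81523847 (minus strand). Its level was between 3382 and 3667 CPM in the control libraries and between 2894 and 3268 in the HG libraries, again without overlap. The log2 fold change was -0.24 (adjusted p = 0.00501 by edgeR, standard error 0.0453), and 84.7% of the control level was left. The ratio of ACTG1 to ACTB counts was 0.517 ± 0.00716 in the control group and 0.543 ± 0.00726 in the HG group (SD, n = 5 each). The difference of 0.07 on the log2 scale was small, but each HG library had a higher ratio than each control library. In all, 5 ratios of members are given in this way. They were chosen after the values were seen and are descriptions, so that no p-value is given for them.

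ACTA2 encodes the alpha-actin of smooth muscle, a marker of myofibroblasts, on chromosome 10 from 88935074 to 88991339 (minus strand). The control libraries held 62.5, 67.8, 55.3, 62.7 and 65.9 CPM, and the HG libraries 58.9, 52.1, 55.8, 46.7 and 50.9. The groups overlapped, because control replicate 3 lay below HG_1 and HG_3. Means were 62.8 ± 4.77 and 52.9 ± 4.66 CPM (SD, n = 5 each), with a log2 fold change of -0.25 (adjusted p = 0.0443 by edgeR, standard error 0.074). This is the weakest call among the members: leaving out 1 library at a time, the adjusted p ran from 0.0177 to 0.1, and it stayed under 0.05 only without HG_1 (0.0177) or without control replicate 3 (0.0264). The ratio of ACTA2 to ACTB counts was 0.00915 ± 0.000429 in the control group and 0.00955 ± 0.00069 in the HG group, a log2 difference of 0.06 with overlapping groups. ACTA2 overlaps STAMBPL1 over 40080 bases and FAS over 758 bases on the other strand. STAMBPL1 was at 9.01 ± 0.962 and 9.90 ± 0.198 CPM and FAS at 48.2 ± 5 and 50.1 ± 4.06 in the control and HG groups, and neither passed the test (adjusted p = 0.321 and 0.728 from edgeR). The other actin isoforms were barely read. ACTBL2 and ACTC1 were at 1.23 ± 0.486 and 0.983 ± 0.41 CPM in the control group, ACTG2 had no count in any library, and none of the list passed the test.

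MYH9 encodes the heavy chain of non-muscle myosin 2A, the motor that pulls on the filaments. The gene spans 36281277 to 36388067 on chromosome 22 (minus strand). Its control libraries held 4352, 3999.7, 4265, 4220.3 and 4464 CPM, and its HG libraries 3269.9, 3323, 3305, 3331 and 3622. The groups were 377.5 CPM apart at their nearest libraries. The log2 fold change was -0.34 (adjusted p = 0.000715 by edgeR, standard error 0.0444), which leaves 79.1% of the control level. MYH10, the heavy chain of myosin 2B, had a control mean of 112.9 ± 7.02 CPM and an HG mean of 101.6 ± 8.96 (adjusted p = 0.174). It was called lower in 1 of 21 other settings, without the 2 libraries that rise with GC content (-0.14, adjusted p = 0.0314 from edgeR). MYH11, the heavy chain of smooth muscle, had at most 13 counts in a library.

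MYL9 encodes a regulatory light chain of myosin 2, the subunit whose phosphorylation switches the motor on. It lies on chromosome 20 from 36541484 to 36551447 (plus strand), inside the span of the antisense gene DLGAP4-AS1, which has no row. The control libraries held 320.8, 358.8, 274.3, 282.8 and 289.9 CPM and the HG libraries 155.8, 111.1, 120.4, 94.9 and 138.4. The highest HG library was 118.4 CPM below the lowest control library, the widest gap relative to level among the members together with that of TAGLN. The mean fell from 305.3 ± 34.7 to 124.1 ± 23.7 CPM (SD, n = 5 each), with a log2 fold change of -1.30 (adjusted p = 0.000145 by edgeR, standard error 0.128). By the size of its change it stood at percentile 98.5 of the genes tested. The ratio of MYL9 to MYH9 counts was 0.0719 ± 0.0106 in the control group and 0.0368 ± 0.00707 in the HG group, a log2 difference of -0.97. The libraries of the groups did not overlap in this ratio (0.0643 to 0.0897 and 0.0285 to 0.0477).

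Of the other light chains, MYL12B and MYL6 were followed over the other settings. MYL12B, a regulatory light chain of non-muscle myosin, had a control mean of 402.0 ± 22.1 CPM and an HG mean of 390.0 ± 26.6 (log2 fold change -0.04, adjusted p = 0.680 from edgeR). MYL6, the essential light chain, stood at 1387 ± 168.2 and 1107 ± 171.6 CPM (log2 fold change -0.33, adjusted p = 0.0687). MYL6 was called lower in 6 of 21 other settings, with log2 fold changes between -0.42 and -0.24, among them DESeq2 (adjusted p = 0.0189), edgeR without HG_1 (0.00568), edgeR without the 2 libraries that rise with GC content (0.00038) and edgeR after the GC and length correction (0.000373). MYL12B was called lower in 1 of 21, after that correction (-0.11, adjusted p = 0.00984). Of the 4 other light chain genes tested, none passed in the edgeR fit on all libraries without correction (1, MYL6, had an unadjusted p under 0.05), and their median log2 fold change was -0.0444.

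TAGLN encodes transgelin, an actin-bundling protein with a calponin homology domain, on chromosome 11 from 117199321 to 117204782 (plus strand). Its control libraries held 214.6, 207.3, 148.8, 175.4 and 171.7 CPM, and its HG libraries 87.4, 66.7, 75.2, 54.9 and 88.3. The highest HG library was 60.5 CPM below the lowest control library. The mean fell from 183.5 ± 27.1 to 74.5 ± 14.2 CPM (SD, n = 5 each), with a log2 fold change of -1.30 (adjusted p = 0.00025 by edgeR, standard error 0.142). TAGLN shares 446 bases at its end with PCSK7 on the other strand, which was at 59.0 ± 3.72 and 48.7 ± 3.61 CPM (log2 fold change -0.28, adjusted p = 0.014). The part of such reads in the TAGLN counts was not tested.

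TAGLN and ACTA2 are both markers of the smooth muscle programme, and their log2 fold changes were -1.30 and -0.25. The ratio of TAGLN to ACTA2 counts was 2.92 ± 0.334 in the control group, with libraries between 2.61 and 3.43, and 1.40 ± 0.216 in the HG group, between 1.18 and 1.73. The log2 difference of the ratio was -1.06.

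CNN1 encodes calponin 1, another of these smooth muscle markers, on chromosome 19 from 11538717 to 11550323 (plus strand). It had 4 counts in control replicate 5, 3 in HG_4 and 0 in the other 8 libraries, where a count of 0 allows up to between 0.0669 and 0.0912 CPM. These limits cover counting error only. The gene did not pass the filter on low counts, and no change of it was detectable at this depth. Its relative CNN2, an actin-binding calponin of non-muscle cells, was well read and fell from 522.0 ± 29.8 to 326.3 ± 27.7 CPM (log2 fold change -0.68, standard error 0.0635, adjusted p = 0.000122 from edgeR). CNN3 and TAGLN2 did not pass, and TAGLN3 was not read in enough libraries to be tested.

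TPM1 and TPM2 encode tropomyosins, rod-shaped proteins that cover the filament and set which motors can reach it. TPM1 lies on chromosome 15 from 63042632 to 63071915 (plus strand) and TPM2 on chromosome 9 from 35681992 to 35690121 (minus strand). For TPM1 the control libraries held 2319, 2055, 1955, 2093 and 2130.5 CPM and the HG libraries 1625, 1616, 1587, 1538 and 1711. The groups did not overlap, and the log2 fold change was -0.39 (adjusted p = 0.000771 by edgeR, standard error 0.0512). For TPM2 the control libraries held 1153, 1214, 988.6, 1054 and 1048 CPM and the HG libraries 944.9, 672.3, 739.2, 702.2 and 759.4. HG_1 came within 43.7 CPM of the lowest control library while the other HG libraries reached at most 759.4 CPM. The log2 fold change of TPM2 was -0.52 (adjusted p = 0.0039 by edgeR, standard error 0.0929), and 70.0% of the control level was left.

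The ratio of TPM2 to TPM1 counts was 0.518 ± 0.0412 in the control group and 0.473 ± 0.0636 in the HG group, a log2 difference of -0.14 with overlapping groups. TPM4, a tropomyosin of non-muscle cells, fell from 1164 ± 56.8 to 884.8 ± 28 CPM (log2 fold change -0.40, adjusted p = 0.000284 from edgeR). TPM3 did not pass (-0.08, adjusted p = 0.186). LMOD1, a leiomodin that nucleates filaments in smooth muscle, fell from 32.9 ± 4.13 to 23.6 ± 3.55 CPM (-0.48, adjusted p = 0.0192), with overlapping groups, and was not called without control replicate 1 (0.0517). The tropomodulins TMOD1, TMOD2 and TMOD3, which cap the pointed end, did not pass.

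CALD1 encodes caldesmon, which binds actin, myosin and tropomyosin and restrains the motor. The gene spans 134744252 to 134970728 on chromosome 7 (plus strand). Its control libraries held 829.1, 561.5, 658.9, 693.0 and 716.7 CPM, and its HG libraries 365.8, 494.7, 449.2, 486.4 and 531.0. HG_1 was the lowest library of its group and control replicate 2 the lowest of its own, and the groups were 30.6 CPM apart. The log2 fold change was -0.57 (adjusted p = 0.00693 by edgeR, standard error 0.115), which leaves 67.3% of the control level.

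HG_1 and control replicate 2, whose counts rise with GC content, were at the ends of their groups for several members, in both directions. The longest coding transcript of CALD1 has 41.6% GC, and that of TPM2 60.4%. HG_1 was the highest of the HG libraries for TPM2 and the lowest for CALD1, and control replicate 2 likewise within its group. Both were also the highest of their groups for MYL9 (60.5% GC), ACTB (56.0%) and ACTA2 (51.8%), but the lowest for MYH9, whose GC content of 58.6% is near that of TPM2. Without these 2 libraries the log2 fold changes were -0.56 for both CALD1 and TPM2 (adjusted p = 0.000898 and 0.000218 from edgeR), and after the correction for GC content and length they were -0.59 and -0.56. MYL9 and TAGLN were at -1.33 and -1.32 without the 2 libraries and both at -1.28 after the correction. MYH9 moved most under the correction, from -0.34 to -0.26 (adjusted p = 0.00322).

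**Figure D2:**
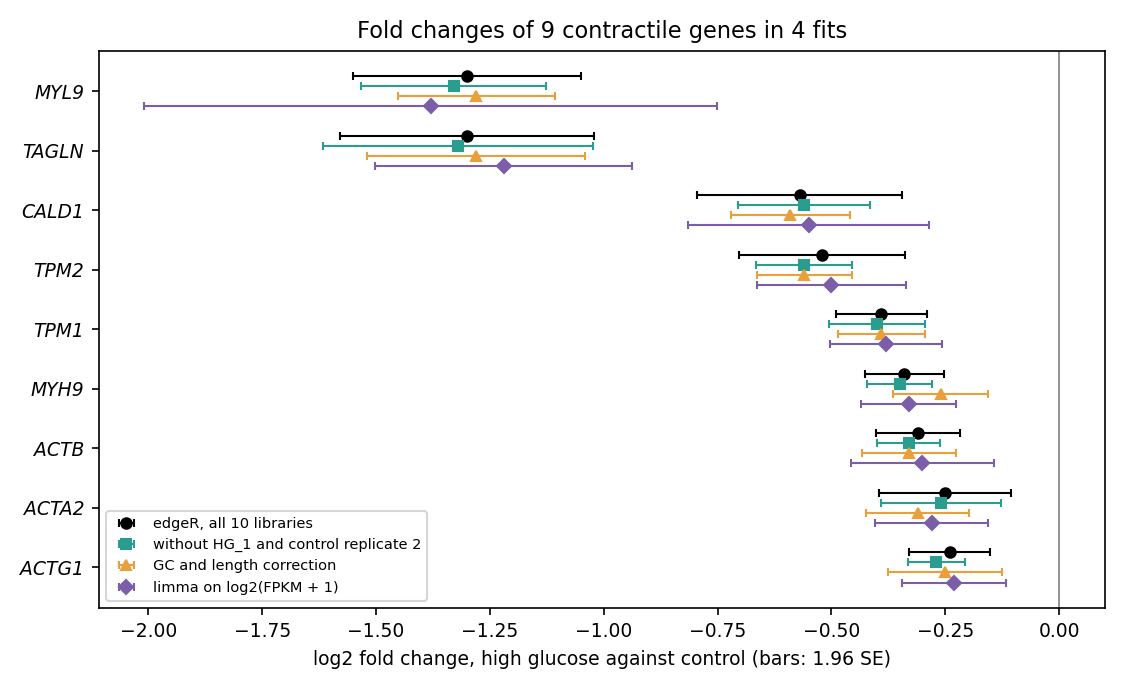
Log2 fold change of the 9 tested members (x axis, HG against control, bars of 95% normal intervals) in 4 fits: edgeR with all 10 libraries, edgeR without the 2 libraries whose counts rise with GC content, edgeR after the GC and length correction, and limma on log2(FPKM + 1). All 36 points lie below 0, with MYL9 and TAGLN between -1.38 and -1.22 and the other members between -0.59 and -0.23.

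Levels of different genes can be compared only per length, for which the deposited FPKM values (fragments scaled to transcript length and library size) were used. In the control group the order was ACTB (3518 ± 137.0 FPKM, SD, n = 5), ACTG1 (1696 ± 57.2), TPM1 (1143 ± 77.6), TPM2 (905.9 ± 62.4), MYH9 (528.5 ± 27.7), MYL9 (181.6 ± 60.6), CALD1 (156.2 ± 24), TAGLN (52.0 ± 7.45), ACTA2 (35.5 ± 2.52) and CNN1, which was listed at 0 in 4 of the libraries. MYL9 and CALD1 overlapped in this order, and the other neighbours did not. Smooth muscle alpha-actin was thus a minor actin in these cells, at 0.0101 ± 0.000597 of the FPKM of ACTB. In the HG group ACTB was at 2854 ± 107.1 FPKM, and the lower end of the order changed. MYL9 was at 70.8 ± 30.7 FPKM and CALD1 at 106.4 ± 16.4, with overlapping libraries, and TAGLN at 21.9 ± 4.31 lay below ACTA2 at 29.1 ± 2.22, with libraries of 15.9 to 26.5 and 26.6 to 32.1.

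**Figure D3:**
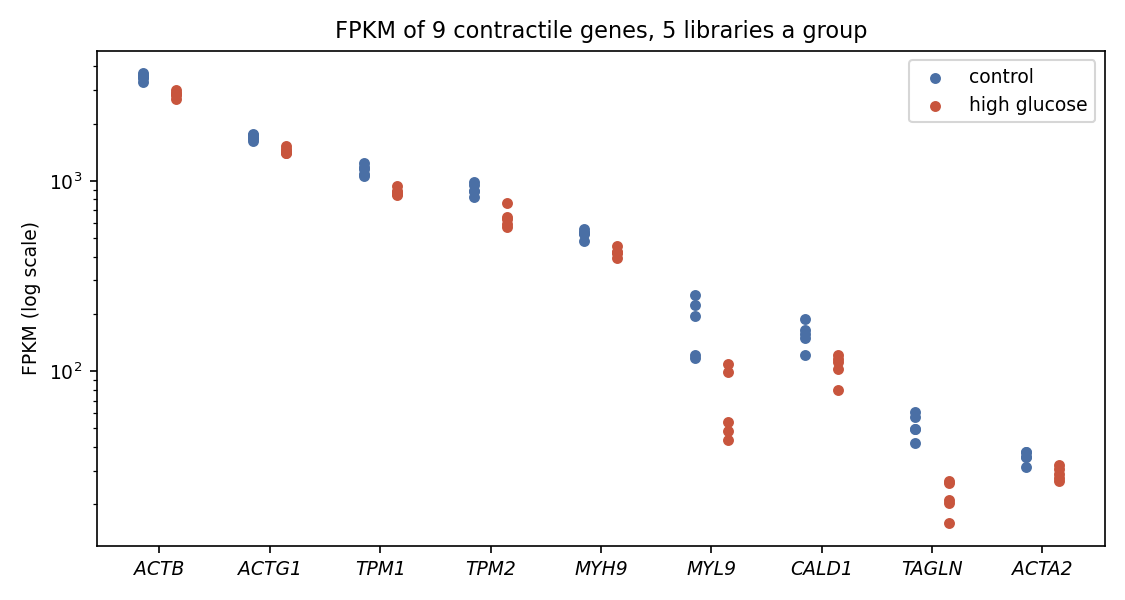
FPKM of the 9 tested members (y axis, log scale), with 1 point for each of the 5 control and 5 HG libraries, ordered by the control mean. TAGLN lies above ACTA2 in the control libraries (41.8 to 61.0 against 31.3 to 37.5) and below it in the HG libraries, and MYL9 has the widest spread within groups.

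The FPKM of MYL9 is less steady than its counts. Between libraries, the ratio of scaled counts to FPKM varied by 75.1% for MYL9, by 10.5% for TAGLN and by at most 7.67% for the other tested members. Control replicates 4 and 5 were at 116.9 and 120.9 FPKM of MYL9, against 195.3 to 251.1 in the other control libraries, while their counts scaled to 282.8 and 289.9 CPM, inside the range of that group. The HG group was split as well. HG_2, HG_3 and HG_4 were at 48.7, 54.1 and 43.4 FPKM for 111.1, 120.4 and 94.9 CPM. HG_1 and HG_5 were at 108.8 and 99.0 FPKM for 155.8 and 138.4 CPM. The FPKM means of MYL9, and its place next to CALD1 in the order, mix both kinds of library. On log2(FPKM + 1) with limma the log2 fold change of MYL9 was -1.38 (adjusted p = 0.0235), with the groups still apart (43.4 to 108.8 against 116.9 to 251.1 FPKM).

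The genes that work with the members were taken from 10 lists with 85 genes, of which 79 could be tested. Of these, 25 were lower and 3 higher in the HG group at an adjusted p under 0.05, which is 31.6% and 3.80%, against 7.80% and 7.62% of all genes tested. The count of higher genes depended on the fit, with 7 by DESeq2 and 8 after the GC and length correction, which called 41 lower. The median log2 fold change was -0.158.

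Cross-linking and stress fibre proteins, which tie filaments into bundles, held 11 of the 25 lower genes. Of 17 genes 11 fell (64.7%, against 7.80% of all genes tested) and none was called higher (against 7.62%). The median log2 fold change was -0.285. CSRP1, a LIM domain protein named after its value was seen, went the other way without passing, at 2.22 ± 0.228 and 3.14 ± 0.575 CPM without overlap (log2 fold change 0.50, adjusted p = 0.0536 from edgeR). FSCN1 (fascin, which packs filaments into parallel bundles) fell from 10.0 ± 1.03 to 5.36 ± 1.17 CPM (log2 fold change -0.90, adjusted p = 0.00234 from edgeR). PDLIM7, an adaptor of stress fibres with PDZ and LIM domains, fell by 0.58 on the log2 scale (adjusted p = 0.00231), and SYNPO (synaptopodin) and PDLIM1 fell by 0.53 and 0.52 (adjusted p = 0.00066 and 0.000985). In each of these 4 genes, named for the largest changes of the list, the HG libraries lay below the control libraries, as in 6.91% of all genes tested.

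Among 20 genes that bind monomers, cap, sever or nucleate filaments, 5 fell (25.0%) and 2 rose (10.0%, against 7.80% and 7.62% of all genes tested), with a median of -0.0849. WDR1, a cofactor of cofilin in filament disassembly, fell from 806.3 ± 18 to 631.0 ± 34.2 CPM (-0.35, adjusted p = 0.000558 from edgeR), and CAPZB, which caps the barbed end, and DSTN (destrin) fell by 0.24 and 0.23 (adjusted p = 0.0141 and 0.004). CAPZB and DSTN were each called in 17 of 21 other settings and not on FPKM (adjusted p between 0.105 and 0.143 for CAPZB and between 0.0545 and 0.0727 for DSTN, from limma), and the groups overlapped for CAPZB. CFL2, the muscle form of cofilin, went the other way, from 224.4 ± 13.7 to 284.0 ± 13.3 CPM (0.34, adjusted p = 0.00158), and PFN2 (profilin 2), named after its value was seen, rose by 0.21 (adjusted p = 0.0024).

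Of 7 tested genes that set the phosphorylation of the light chain, 3 fell (42.9%, against 7.80% of all genes tested) and none rose. MYLK, the light chain kinase, had a control mean of 314.9 ± 36.1 CPM and an HG mean of 245.8 ± 28.4 (-0.36, adjusted p = 0.0315 from edgeR). DAPK3, a kinase of the light chain and its phosphatase, fell by 0.31 (adjusted p = 0.021) and PPP1R12C, a targeting subunit of the phosphatase, by 0.25 (adjusted p = 0.0387). The groups overlapped in all 3, and over 21 other settings MYLK stayed under 0.05 in 9, PPP1R12C in 11 and DAPK3 in 16.

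Upstream of the motor, 1 of 14 genes of RhoA and ROCK signalling was lower and 1 higher, 7.14% each, near the 7.80% and 7.62% of all genes tested. LIMK2, a kinase that inactivates cofilin, fell (-0.32, adjusted p = 0.00483 from edgeR) and ARHGEF2, an exchange factor for RhoA, rose (0.23, adjusted p = 0.0168), and the other 12 did not pass. SRF itself fell from 88.8 ± 7.6 to 64.0 ± 3.06 CPM (-0.47, standard error 0.0635, adjusted p = 0.000826), without overlap. Its cofactor MRTFA fell from 53.6 ± 4.32 to 41.9 ± 5.15 CPM (-0.35, adjusted p = 0.0194), with overlapping groups, and was not called without HG_3 (0.054), HG_4 (0.0508) or HG_5 (0.0512). MRTFB, MYOCD and SCAI did not pass.

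**Figure D4:**
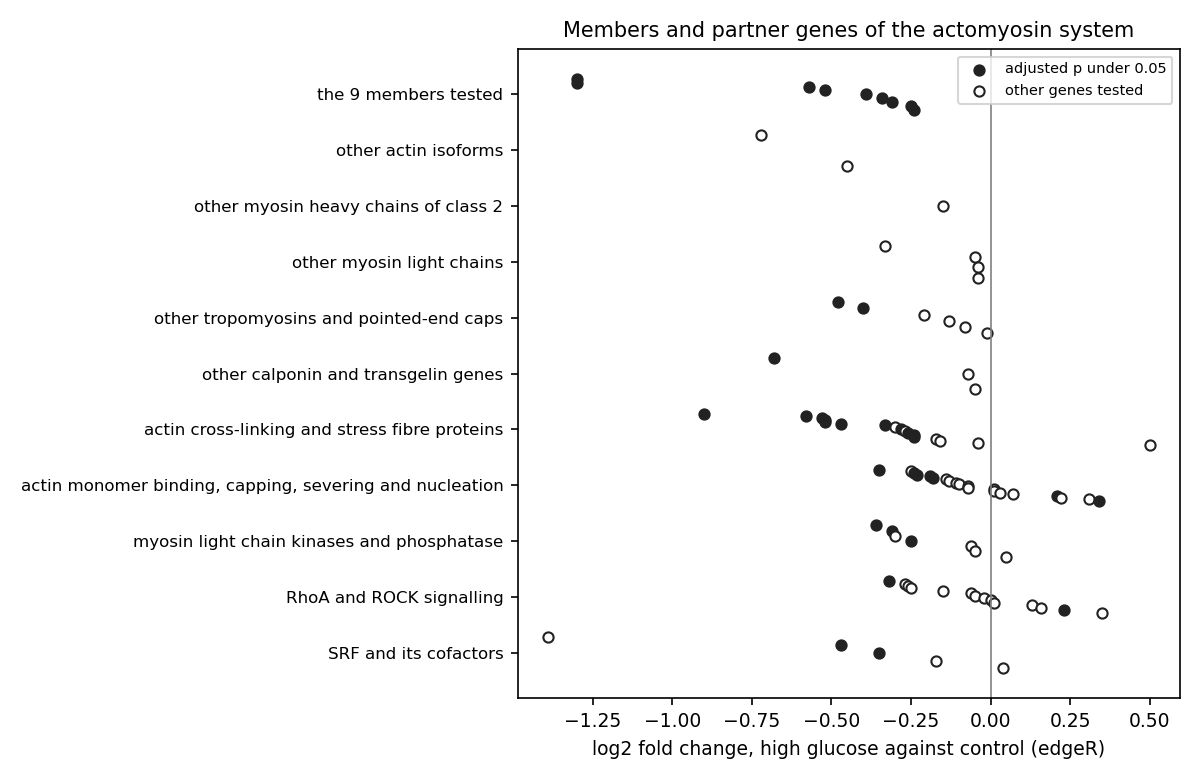
Log2 fold change (x axis, HG against control, edgeR) of the 9 tested members and of the tested genes of 10 partner lists, 1 circle a gene, filled where the adjusted p was under 0.05. The members all lie at or below -0.24, the cross-linking proteins mostly below 0, and the genes of RhoA and ROCK signalling on both sides of 0.

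Genes whose course over the 10 libraries was most like that of a member were found by the root mean square difference of standardized log2 CPM, where 0 means the same course and the median over 13537 genes was between 1.34 and 1.36. Some members had another gene of the system as a close match: ACTG1 came first for ACTB (0.127), MYL9 for TAGLN (0.119), and PDLIM7 for TPM2 (0.0934), while TPM4 was the next closest to TPM1 after NREP and IGFBP5 (0.125). FAT1, an atypical cadherin, came first for CALD1 (0.0806) and CADM4, a cell adhesion molecule, for MYL9 (0.105). MYRF and GBP2 were among the 3 closest genes of both TAGLN and MYL9. ACTA2 had the least close first match, MICALL2 at 0.263. CLSTN2 came first for MYH9 (0.143), and NREP for TPM1 (0.118). All of these share the same libraries and the same contrast, and the likeness is a description.

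Of 10 markers of smooth muscle and pericytes 6 could be tested, and 4 fell (66.7%). For each marker list here, the shares over all genes tested are 7.80% lower and 7.62% higher. The 4 were PDGFRB (from 176.8 ± 14.7 to 102.7 ± 8.76 CPM, log2 fold change -0.78, adjusted p = 0.000123 from edgeR), RGS5, NOTCH3 and LMOD1, while MYOCD and CSPG4 did not pass. NOTCH3 was near the floor (0.636 and 0.258 CPM on average, at most 38 counts in a library). The groups overlapped for RGS5, NOTCH3 and LMOD1. The summed level of the 10 markers was 201.4 to 248.0 CPM in the control libraries and 113.0 to 147.1 in the HG libraries. PDGFRB made up most of this sum. The defining markers DES, ACTG2 and KCNMB1 had 0 counts in every library, and MYH11 had at most 13. Of 7 fibroblast markers, COL1A1 fell (-1.33) and FAP rose (0.46), and the other 5 were too low to be tested, with LUM and THY1 at 0 in every library. The sum over all 7, mostly FAP and COL1A1, was 119.0 to 130.6 CPM in the control libraries and 119.3 to 140.2 in the HG libraries. Of 5 endothelial markers 2 could be tested, of which KDR fell, with sums of 2.93 to 5.05 CPM against 2.13 to 3.13 and CDH5 at 0 in every library. Of 4 leukocyte markers only CD68, a lysosomal protein that many cells express, could be tested, and it rose, with sums of 54.5 to 81.1 CPM against 101.6 to 143.5, while CD3E was at 0 in every library. Of the 12 RPE markers 9 could be tested, and 3 fell (33.3%, against 7.80% of all genes tested), namely KRT8, KRT18 and PMEL, and the sum of the list was 2833 to 3591 CPM in the control libraries and 1796 to 2470.2 in the HG libraries. KRT8 (1864 and 1211 CPM on average) and KRT18 (1059.6 and 659.4), keratins of simple epithelia in general, made up most of that sum, while OTX2, MITF and RLBP1 did not pass. BEST1, another RPE marker, was uneven between the control libraries (164.5 ± 244.3 CPM, up to 18223 counts, against 5.27 CPM in the HG group) and did not pass (adjusted p = 0.067 from edgeR). The part of these cell type markers in the results on the contractile genes was not tested.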

How the data were processed

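RNA of ARPE-19 cells was sequenced in 10 libraries, 5 a group. The authors deposited a table of whole-number read counts per gene, without normalization, and a table of FPKM values, which the authors had divided by length and library size. The submitters' processing notes name fastp 0.20.1, HISAT2 2.2.1 and GRCh38. The counting program, annotation and strand setting are not given in the sources used here. Counts were compared with R 4.3.3 and edgeR 4.0.16 (default filter on low counts, TMM, quasi-likelihood test, Benjamini-Hochberg adjustment over all 14936 rows tested). CPM are scaled to normalized library size, and a prior count of 2 was used for log2 CPM. FPKM were tested with limma 3.58.1 on log2(FPKM + 1) and log2(FPKM + 0.1), which understates changes of low genes. DESeq2 1.42.0 and other settings served as alternatives. GC content and length were those of the longest GENCODE release 29 transcript, known for 90.6% of the rows tested, and each library's lowess trend (span 0.3) was removed. The edgeR fits (plain, with the block and with the GC correction) and the DESeq2 fit were run on simulated counts. The limma fit was run on simulated CPM, which are not divided by length, and not on FPKM. The outcome of these runs is not given here. The members and lists were chosen with earlier results of these data known. All members are named. From each partner list up to 4 genes with an adjusted p under 0.05 and the largest change are named, or else the 2 most abundant, and for each member the 3 genes most like it were sought. Markers and other list genes named besides these were chosen after their values were seen.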

Additional observations from a re-analysis of the deposited data

Results flagged for a closer look

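The 9 tested members give 18 groups of 5 libraries, each searched for 1 library standing apart, which chance alone finds in about 1 in 20 groups. It was found once: HG_5 had 3622 CPM of MYH9, while the remaining HG libraries ranged from 3269.9 to 3331, and the gap took up 0.827 of the range. HG_5 was still below every control library. Without it the log2 fold change of MYH9 was -0.37 (edgeR, adjusted p = 0.000893), against -0.34 with all libraries.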

How the results depend on the processing

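Each tested member kept its direction under all 21 alternatives, and 7 of the 9 tested members kept an adjusted p under 0.05 in all of them. ACTA2 kept it in 11: its log2 fold change was -0.25 with no filter (adjusted p = 0.0549 from edgeR) and -0.25 with the column number as a replicate block (0.142), and between -0.29 and -0.21 with 1 library left out. CALD1 stood at -0.57 with the block (0.0559). Among named partner genes, the block also ended the calls of ARHGEF2 (0.0747), CAPZB (0.0618), DSTN (0.0544), MYLK (0.105), DAPK3 (0.086) and PPP1R12C (0.12). The block is no pairing given by the labels: same-numbered libraries had correlations of their deviations between -0.0656 and 0.0392, and 1 of 10 libraries correlated best with its own number. The 2303 genes called (1165 lower, 1138 higher) became 1071 (563 and 508) with the block, 4035 (2051 and 1984) without HG_1 and control replicate 2, and 3779 (1914 and 1865) after the GC and length correction. With 1 library left out they were between 1648 and 2993. Of the partner genes, 3 were called higher, against 7 with DESeq2 and 8 after the GC correction, which also raised those called lower from 25 to 41. By CPM, which is not per length, MYH9 ranked 2 among the members in place of 5. The causes of these shifts were not tested. CNN1 could be fitted only without the filter, and its reads are too few for any statement.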
